A study of Mus musculus with 4 samples.

Results

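The transcripts of the mitochondrial genome were followed in macrophages sorted from tumor-bearing mouse lungs. They were taken as every row of the deposited gene table whose name starts with MT-, which gave 34 of 27433 rows: 13 messenger RNAs (mRNAs), 2 ribosomal RNAs (rRNAs) and 19 transfer RNAs (tRNAs). GENCODE release M21 lists 37 genes on the mitochondrial chromosome of GRCm38 (mm10), and the 3 tRNA genes without a row (mt-Tf, mt-Td and mt-Tk) were not analysed here. Names are printed in mouse style (mt-Nd1). The groups were 2 libraries of WTKL chimeras, which had received Tmem173fl/fl bone marrow, and 2 libraries of LYZKL chimeras, which had received marrow of the genotype Tmem173fl/fl;Lyz2-Cre. Tmem173 encodes STING, the adaptor of the cytosolic DNA sensor cGAS, and mitochondrial DNA that reaches the cytosol is among the ligands known for that sensor. The marrow went into irradiated recipients, which in both groups were of the genotype KrasLSL-G12D/+Lkb1fl/fl (KL), and tumors were started in their lungs with intranasal adenoviral Cre. At 8 weeks the sort took cells with CD11b and CD64, without Ly6G and with little Siglec-F. Lyz2-Cre is active in macrophages and neutrophils among others, and lung cells that do not descend from marrow keep the recipient's genotype. The sources used here give neither the age of the mice nor any pooling of animals. LYZKL marrow differs from WTKL marrow by the Cre allele in Lyz2 as well as by the deletion it makes, and the effects of the allele and of the deletion cannot be told apart.

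The mitochondrial genome is a small circle that is read from both strands into long RNAs. The tRNAs lie between most of the other genes, and they are cut out by dedicated nucleases, which frees the mRNAs and rRNAs that they separate. The mRNAs encode core subunits of the respiratory complexes I, III and IV and of the ATP synthase (complex V), all other subunits of these complexes come from nuclear genes, and the rRNAs and tRNAs serve the ribosomes inside the organelle. Most genes lie on the strand annotated as plus (products of the heavy strand). mt-Nd6 and a minority of the tRNAs lie on the minus strand (light-strand genes in the plots). The libraries were made from oligo(dT)-selected RNA without marking the strand, so a read from a gene and a read from the other strand at the same place cannot be told apart.

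Values are FPKM, fragments scaled by gene length and library total, as deposited by the authors. The low values of the table are whole multiples of what 1 read is worth, which gave library totals of 15466117 and 22867836 reads for WTKL replicates 1 and 2 and of 16453512 and 18322164 for LYZKL replicates 1 and 2. All 34 rows gave whole reads at their annotated length. The floxed gene checked the labels, with Tmem173 at 15.4 and 15.2 FPKM in WTKL and 5.02 and 4.75 in LYZKL (log2 difference −1.47, SE 0.06, adjusted p = 0.0452, limma). The macrophage markers Adgre1 (56.0 to 58.7 FPKM), Cd68 (367 to 386) and Csf1r (94.3 to 101) were high in all 4 libraries. Of the 7 macrophage markers measured, Lyz2 and Fcgr1 were lower in LYZKL without overlap. Lyz2, the locus that holds Cre in LYZKL, was at 9560 and 10232 FPKM in WTKL but 2614 and 3650 in LYZKL (adjusted p = 0.0641 in limma, fitted to the log2 values, and 2.96e-05 in limma-voom, fitted to the rebuilt reads). Fcgr1, which encodes the sorted antigen CD64 and is named after its values were seen, was at 25.5 and 24.7 FPKM in WTKL but 19.5 and 20.8 in LYZKL. Since the labels name no animal for any library, the spread behind the p-values is that between these samples and may be technical.

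Several mitochondrial genes have near-identical copies in the nuclear genome, and many reads of these genes were counted on the copies. Of the nuclear transcripts of GENCODE M21, 11 matched the mitochondrial genome at 95% identity or more over at least 100 bases, and all 11 had a row of their own. Of these, 7 stand in a row on chromosome 1 (minus strand, 24611535 to 24616197), annotated as unprocessed pseudogenes, whose matches run from base 6390 to base 11042 of the mitochondrial genome. Another 3 lie on chromosome 2 and 1 on chromosome 13. Gm28661 is identical to mt-Co2 over 681 bases, Gm10925 to mt-Atp6 over 678 and Gm28437 to mt-Co3 over 783. A read within such a match fits both places equally, as the starts of mt-Co2 and its copy show. They are printed from the GENCODE M21 transcripts (GRCm38), with mt-Co2 at chrM:7013-7052 on the plus strand and Gm28661 at chr1:24615526-24615565 on the minus strand.

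mt-Co2: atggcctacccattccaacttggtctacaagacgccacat
Gm28661: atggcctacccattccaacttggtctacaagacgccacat

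Where the copies differ, they differ at few bases. Gm28438 carries 1 substitution against mt-Nd3 in 345 bases, T9461C, with the mitochondrial base first, its position counted from base 1 of the mitochondrial reference, and the base of the copy last. Gm29216 matches only the 3′ part of mt-Co1 and differs from it at 6 of 492 bases (T6383A, C6384T, A6386G, A6387G, C6389A and A6393T), all near the start of the copy. The windows below hold these differences in capitals, from chrM:9459-9481 (plus) and chr1:24613097-24613119 (minus) for mt-Nd3 and Gm28438, and from chrM:6381-6413 (plus) and chr1:24616165-24616197 (minus) for mt-Co1 and Gm29216.

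mt-Nd3: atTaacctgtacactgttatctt
Gm28438: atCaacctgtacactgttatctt
mt-Co1: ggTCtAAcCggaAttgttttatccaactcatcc
Gm29216: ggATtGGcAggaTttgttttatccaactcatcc

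Nearly all reads of mt-Co2, mt-Atp6 and mt-Co3 were counted on the copies. For mt-Atp6, a subunit of the membrane part of ATP synthase, the mitochondrial row held 95 and 140 reads in WTKL but 87 and 70 in LYZKL. Its copy Gm10925 held 77643 and 134490 reads in WTKL and 68634 and 82258 in LYZKL, or 99.9% of the reads of the pair in every library. The share on the copies was 99.7% to 99.8% for mt-Co2, the cytochrome c oxidase subunit that receives electrons from cytochrome c, and 99.6% to 99.8% for mt-Co3, another core subunit of that enzyme. For mt-Co1, which carries the catalytic site of the oxidase and is copied only in its 3′ part, 20.1% to 20.5% of reads stood on copies. mt-Nd3, a small membrane subunit of complex I, was divided about evenly, with 51.8% and 50.3% on Gm28438 in WTKL and 49.4% and 44.4% in LYZKL. Identity did not go with the same split everywhere. Gm28439 is identical to mt-Nd4 over 876 bases and Gm10222 to mt-Nd4l over 294, yet they held only 7 to 18 and 1 to 4 reads per library, against 22406 to 36881 on mt-Nd4 and 13175 to 22185 on mt-Nd4l. How reads with several equal places were counted by the authors is not stated in the labels. Levels of mt-Co2, mt-Atp6, mt-Co3, mt-Co1 and mt-Nd3 are therefore uncertain as deposited, and they are given below both alone and with the reads of their copies added over the length of the mitochondrial gene. The genes mt-Atp8, mt-Tg, mt-Tr and mt-Ts1 lie inside the copied stretch too. The 69 bases between Gm28438 and Gm28437 are as many as lie between their mitochondrial matches, where mt-Tg sits, so these rows are uncertain as well. The bases between the copies were not compared.

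**Figure D1:**
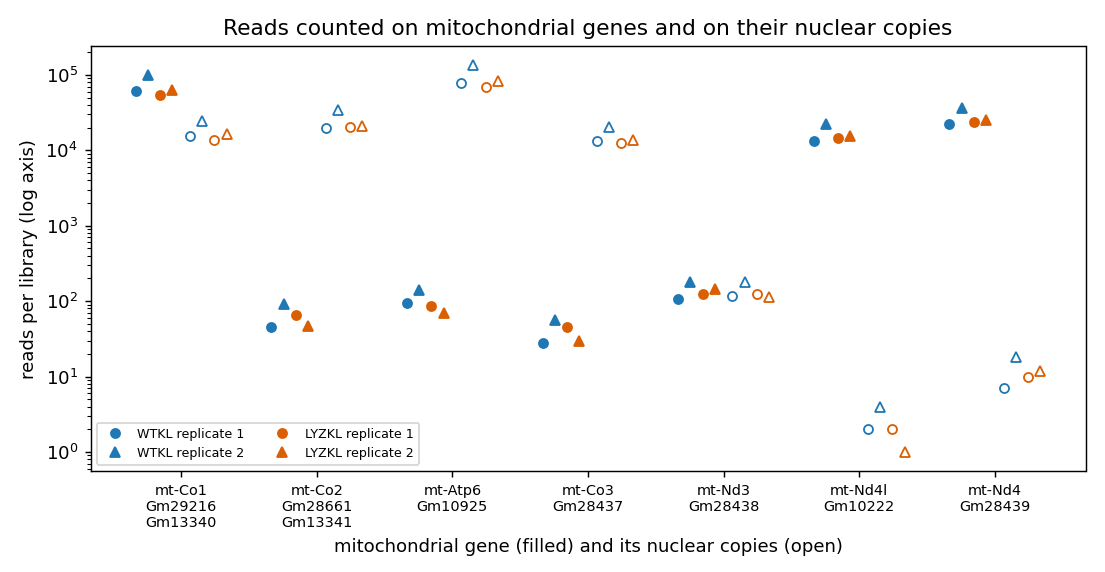
Reads per library (log axis) on 7 mitochondrial genes (filled) and on their nuclear copies (open), by library. For mt-Co2, mt-Atp6 and mt-Co3 the open points lie far above the filled points, while for mt-Nd4l and mt-Nd4 the copies held at most 18 reads.

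In the sorted samples, the mRNA rows spanned a wide range of levels per length. With copies added, mt-Atp6 was the most abundant at 8013 ± 894 FPKM (SD, n = 2) in WTKL. mt-Co1 followed at 3350 ± 203, and mt-Nd4l, a membrane subunit of complex I, at 3067 ± 282, and the libraries of these 2 genes overlapped. mt-Nd1 (2095 ± 254), which lies at the ubiquinone site of complex I, and mt-Co2 (2037 ± 198) came next and could not be separated from each other. mt-Nd5 (1533 ± 81.9), a proton-pumping subunit of complex I, and mt-Cytb (1488 ± 52.9), the cytochrome b of complex III, also overlapped. They were followed by the light-strand mRNA mt-Nd6 (1296 ± 34.8), by mt-Co3 (1121 ± 43.6) and mt-Nd4 (1111 ± 84.2), which overlapped, and by mt-Nd2 (862 ± 61.4). mt-Nd3 with its copy stood at 43.6 ± 2.74 FPKM and mt-Atp8, the small partner of mt-Atp6 in ATP synthase, at 9.10 ± 0.770. Both lie in the copied stretch, and no reads of a copy were added to mt-Atp8, so these low values are uncertain. The order in LYZKL was alike except at 3 places: mt-Nd4l (2949 and 2825 FPKM) lay above mt-Co1 (2665 and 2815), mt-Cytb (1509 and 1400) had a higher mean than mt-Nd5 (1414 and 1339) with overlap, and mt-Nd4 (1042 and 1004) lay above mt-Co3 (988 and 953).

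The rRNAs, which carry short tails at most, stood at 84.7 ± 8.41 FPKM for mt-Rnr1 (12S) and 99.7 ± 7.84 for mt-Rnr2 (16S) in WTKL. The tRNA rows covered genes of 59 to 75 bases, shorter than the 150-base reads, so a full-length read on them runs past the gene and their level per length is only a rough scale. The highest were mt-Tc (748 ± 30.3 FPKM in WTKL), mt-Ty (598 ± 15.7), mt-Ta (428 ± 0.793) and mt-Tn (409 ± 2.98), the tRNAs for cysteine, tyrosine, alanine and asparagine. These 4 light-strand genes lie side by side between mt-Nd2 and mt-Co1. The lowest was mt-Ts1, with 1 read in WTKL replicate 1 and 0 in the other 3 libraries. It missed the minimum mean of 1 FPKM over the 4 libraries, which the other 33 rows passed, and was not tested.

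**Figure D2:**
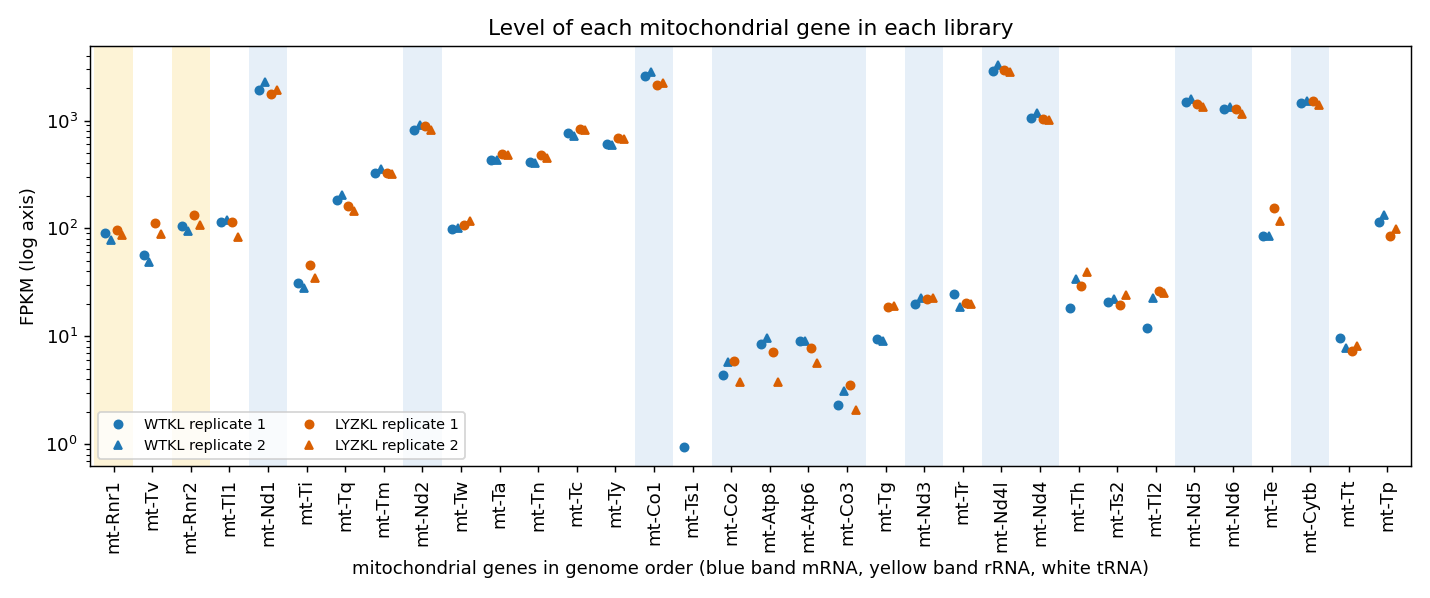
FPKM (log axis) of each mitochondrial gene in genome order in each library, without the reads of nuclear copies; rows at 0 are not drawn. The low points of mt-Co2, mt-Atp6 and mt-Co3 are rows of which nearly all reads were counted on chromosome 1 copies, and mt-Tv, mt-Te and mt-Tg are the tRNA genes with the largest log2 differences between the groups.

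The comparison asked how the classes and complexes of the mitochondrial genome differed between LYZKL and WTKL. Without copies added, differences were below 0 for 11 of 13 mRNAs and above 0 for 12 of 18 tested tRNAs. Most of them were small, and of all members only mt-Tg passed the test. Differences are LYZKL minus WTKL on the log2(FPKM + 1) scale, tested with limma over the 12691 genes that averaged 1 FPKM or more, two-sided, at a Benjamini-Hochberg adjusted p of 0.05. At that threshold 1 of 33 members rose and 0 fell, beside 0.158% and 0.134% of all tested genes (0.292% in either direction). At an unadjusted p under 0.05, 7 members were higher and 3 lower, where the shares over all tested genes were 10.9% and 7.85% (18.8% in either direction). limma-voom, a count model run on the rebuilt reads, called 2 members higher and 1 lower, beside 5.8% and 3.52% of the genes it tested (9.32% in either direction). The 2 libraries of each group did not overlap for 20 members, 11 higher and 9 lower in LYZKL, and such separation held for 27.8% (higher) and 24.4% (lower) of all tested genes, 52.2% together. The median difference was −0.02 over the 33 members and 0.01 over all tested genes. In these bulk samples, fewer cells of a type and less RNA per cell cannot be told apart.

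Markers of other cells and signs of RNA composition differed between the groups beside these values. The summed level of 14 neutrophil markers was 2483 and 1944 FPKM in WTKL and 5787 and 3794 in LYZKL. Of 11 tested, 11 had a difference above 0, 8 were higher at an unadjusted p under 0.05 and 0 passed the adjusted threshold in limma, while limma-voom called 8 higher, and the median log2 difference was 1.04. S100a9, a calcium-binding protein abundant in neutrophils, was at 2061 and 1562 FPKM in WTKL and 4860 and 3079 in LYZKL, while Ly6g, whose product the sort excluded, was at 0.418 to 0.985 FPKM. T and NK cell markers summed to 150 and 141 FPKM in WTKL and 89.1 and 108 in LYZKL, with 13 of 16 lower at an unadjusted p under 0.05, 9 called lower by limma-voom, 0 called by limma and a median of −0.55. B cell markers summed to 12.4 and 12.0 FPKM in WTKL and 7.38 and 9.48 in LYZKL, with differences below 0 for 4 of 4 tested, 3 of them without overlap. Dendritic cell markers summed to 22.1 and 16.9 FPKM in WTKL and 13.1 and 18.8 in LYZKL, which overlap, with differences below 0 for 4 of 4 tested. No marker of these lists was at 0 in all libraries, and the NK cell receptor gene Ncr1 was at 0 in WTKL replicate 1 and LYZKL replicate 2. Of 7 tested alveolar macrophage markers 1 rose, Siglecf, the gene of the antigen gated low, named after its values were seen (6.05 and 6.80 FPKM in WTKL, 15.6 in each LYZKL library, adjusted p = 0.0452, limma). The list's most abundant marker, Chil3, was at 1133 and 1312 FPKM in WTKL and 970 and 985 in LYZKL (adjusted p = 0.183 in limma and 0.0153 in limma-voom). Of the 7 differences, 4 were above and 3 below 0, and LYZKL held 89.9% of the summed level in WTKL. The nuclear RNA Malat1 was at 539 and 451 FPKM in WTKL and 631 and 566 in LYZKL, and of 9 tested replication-dependent histone genes, whose mRNAs normally lack a poly(A) tail, 7 had a difference above 0 (median 0.28). Hist2h2aa2, which has a near-identical neighbour copy, was at 78.9 and 71.1 FPKM in WTKL and 118 and 105 in LYZKL. The part of the other cells, of Malat1 and of the histone RNAs in the mitochondrial differences was not tested.

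Of the 13 mRNAs without copies added, 11 had a difference below 0 (median −0.09). Without overlap, 5 were lower in LYZKL and 0 higher, where the shares over all tested genes were 24.4% and 27.8%. With copies added, the differences of mt-Co3 and mt-Nd3, above 0 on their own rows, were −0.21 and −0.05. mt-Co2 and mt-Co3 were then lower in LYZKL without overlap too, while mt-Nd3 still overlapped. mt-Co1 was the clearest. It was measured at 2559 and 2790 FPKM in WTKL and 2124 and 2239 in LYZKL. Both LYZKL libraries lay below both WTKL libraries, with means of 2674 ± 164 and 2181 ± 81.4 (SD, n = 2 each) and a level of 81.6% of WTKL. The log2 difference of −0.29 (SE 0.08) missed the threshold in limma (adjusted p = 0.164). On the rebuilt reads, limma-voom gave mt-Co1 an adjusted p of 0.0116. The 3′ part counted on Gm29216 was likewise lower in both LYZKL libraries, at 2026 and 2196 FPKM in WTKL and 1689 and 1799 in LYZKL (82.6%), with an adjusted p of 0.176 in limma and 0.0184 in limma-voom.

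The other oxidase subunits have to be read on their copies. On Gm28661, the copy of mt-Co2, the level was 1899 and 2176 FPKM in WTKL and 1837 and 1706 in LYZKL. These groups did not overlap, but replicate 1 of each lay close together, and the log2 difference was −0.20 (SE 0.09, limma adjusted p = 0.35). On Gm28437, the copy of mt-Co3, WTKL stood at 1090 and 1151 FPKM and LYZKL at 986 and 952. Here too both LYZKL libraries were lower (86.5% of WTKL), with a log2 difference of −0.21 (SE 0.06), an adjusted p of 0.192 in limma and of 0.047 in limma-voom. The mitochondrial rows alone would give another picture, since mt-Co2 (4.35 and 5.82 FPKM in WTKL, 5.86 and 3.75 in LYZKL) and mt-Co3 (2.31 and 3.12 in WTKL, 3.57 and 2.09 in LYZKL) rest on 28 to 91 reads per library and overlap between the groups.

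For ATP synthase, Gm10925, the row that holds the reads of mt-Atp6, was at 7404 and 8674 FPKM in WTKL and 6152 and 6622 in LYZKL. Both LYZKL libraries were lower, at 79.4% of the WTKL mean. The log2 difference of −0.33 (SE 0.11) had an adjusted p of 0.229 in limma and 0.0181 in limma-voom. The few reads left on the mt-Atp6 row pointed the same way, at 9.02 and 8.99 FPKM in WTKL and 7.76 and 5.61 in LYZKL (log2 difference −0.39, SE 0.15, adjusted p = 0.273, limma). mt-Atp8 was at 8.56 and 9.65 FPKM in WTKL and 7.15 and 3.75 in LYZKL. Its difference of −0.70 (SE 0.28, adjusted p = 0.288, limma) had the largest size of any mRNA, but it rests on 72 reads in WTKL and 38 in LYZKL, and LYZKL replicate 2 was far below replicate 1.

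Complex I genes had smaller differences. mt-Nd5 was at 1475 and 1591 FPKM in WTKL and 1414 and 1339 in LYZKL, and mt-Nd4, another proton-pumping subunit, at 1051 and 1170 in WTKL and 1041 and 1004 in LYZKL. For both genes the groups did not overlap, with log2 differences of −0.15 (SE 0.07, adjusted p = 0.33, limma) and −0.12 (SE 0.08, adjusted p = 0.477, limma). mt-Nd1 stood at 1915 and 2274 FPKM in WTKL and 1770 and 1921 in LYZKL, so LYZKL replicate 2 reached WTKL replicate 1. Groups overlapped also for mt-Nd2, mt-Nd3, mt-Nd4l and the light-strand mt-Nd6 (1271 and 1321 FPKM in WTKL, 1292 and 1140 in LYZKL), whose differences ran from −0.09 to 0.06. mt-Cytb, the sole mitochondrial gene of complex III, was at 1451 and 1525 FPKM in WTKL and 1509 and 1400 in LYZKL (log2 difference −0.03, SE 0.07, adjusted p = 0.842, limma).

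Both rRNAs had differences above 0. mt-Rnr2 was at 105 and 94.1 FPKM in WTKL and 133 and 108 in LYZKL, with LYZKL higher in both libraries (log2 difference 0.27, SE 0.12, adjusted p = 0.33, limma). mt-Rnr1 was at 90.7 and 78.8 FPKM in WTKL and 97.1 and 86.0 in LYZKL, which overlap (log2 difference 0.11, SE 0.10, adjusted p = 0.614, limma).

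The tRNAs held the widest differences of the mitochondrial genome. Of 18 tested, 12 had a difference above 0 (median 0.17). Without overlap, 10 were higher and 4 lower in LYZKL, and 4 overlapped. Over all tested genes, 27.8% were higher and 24.4% lower without overlap. mt-Tv, mt-Te and mt-Tg, which carry valine, glutamate and glycine, stood out and are printed below from the GENCODE M21 transcripts (GRCm38), 5′ to 3′, as DNA, with the anticodon in capitals. They lie at chrM:1025-1093 (plus), chrM:14071-14139 (minus) and chrM:9391-9458 (plus).

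mt-Tv: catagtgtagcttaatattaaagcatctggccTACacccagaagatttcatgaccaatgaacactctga
mt-Te: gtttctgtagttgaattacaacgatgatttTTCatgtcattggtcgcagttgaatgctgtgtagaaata
mt-Tg: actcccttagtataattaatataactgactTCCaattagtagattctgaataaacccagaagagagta

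mt-Tv lies between the genes of the rRNAs. It was measured at 57.2 and 48.8 FPKM in WTKL and 113 and 89.4 in LYZKL. Both LYZKL libraries lay well above both WTKL libraries, at 191% of the WTKL mean, on 138 reads in WTKL and 241 in LYZKL. The log2 difference of 0.91 (SE 0.14) had an adjusted p of 0.0851 in limma and 0.0158 in limma-voom. Its neighbours had smaller differences. mt-Tv was 63.1% and 62.0% of the level of mt-Rnr1 in WTKL but 116% and 104% in LYZKL, and 54.3% and 51.8% of mt-Rnr2 in WTKL but 84.6% and 82.4% in LYZKL.

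mt-Te is a light-strand gene next to mt-Nd6. It was at 84.3 and 84.9 FPKM in WTKL and 153 and 118 in LYZKL, on 224 and 323 reads. The WTKL libraries were nearly equal and both LYZKL libraries were higher, at 160% of WTKL. The log2 difference of 0.66 (SE 0.14) had an adjusted p of 0.118 in limma and 0.0401 in limma-voom. Relative to its neighbour mt-Nd6, mt-Te stood at 6.63% and 6.43% in WTKL and 11.9% and 10.3% in LYZKL.

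mt-Tg, within the stretch copied to chromosome 1, rose from 9.51 and 9.0 FPKM in WTKL to 18.8 and 19.3 in LYZKL, 205% of the WTKL level. These values come from 10 and 14 reads in WTKL and 21 and 24 in LYZKL. The ratio of pooled reads per library total was 2.07, with an exact 95% interval of 1.23 to 3.55 that covers counting error only. The log2 difference of 0.97 (SE 0.06) had an adjusted p of 0.0452 in limma. The replicates of a group lay close together (SD 0.357 FPKM in WTKL and 0.349 in LYZKL). That spread is smaller than the counting error of 10 to 24 reads, so the SE and p of limma are probably too small here. limma-voom gave an SE of 0.42 and an adjusted p of 0.181. With any 1 of the 4 libraries left out, the log2 difference stayed between 0.93 and 1.00 and the adjusted p lay between 0.0999 and 0.249, in fits that called 0 of all tested genes. mt-Nd3, which directly follows mt-Tg, was at 20.1 and 22.6 FPKM in WTKL and 22.0 and 22.4 in LYZKL.

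Between mt-Nd2 and mt-Co1, 5 tRNA genes lie in a row, and all 5 were slightly higher in LYZKL without overlap. Such separation in that direction held for 27.8% of all tested genes. mt-Ty was at 609 and 587 FPKM in WTKL and 684 and 680 in LYZKL (log2 difference 0.19, SE 0.05, adjusted p = 0.176, limma). mt-Ta stood at 427 and 428 against 494 and 475 FPKM, and mt-Tn at 411 and 406 against 475 and 447. mt-Tc was at 769 and 726 FPKM in WTKL and 832 and 810 in LYZKL. mt-Tw, the tryptophan tRNA and the only one of them on the plus strand, was at 98.4 and 102 FPKM in WTKL and 108 and 118 in LYZKL. Their log2 differences lay between 0.14 and 0.19, and in limma the smallest of their adjusted p-values was that of mt-Ty.

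Other tRNAs had differences below 0. mt-Tp, the light-strand proline tRNA, was at 114 and 132 FPKM in WTKL and 85.3 and 98.6 in LYZKL, lower without overlap (log2 difference −0.42, SE 0.11, adjusted p = 0.171, limma). mt-Tq, the light-strand glutamine tRNA, was at 185 and 204 FPKM in WTKL and 163 and 145 in LYZKL (log2 difference −0.33, SE 0.09, adjusted p = 0.161, limma). mt-Tm and mt-Tl1 were also lower without overlap, but their LYZKL replicate 1 (327 and 114 FPKM) nearly reached WTKL replicate 1 (327 and 115). By annotated strand, 5 of the tested light-strand tRNAs were higher and 2 lower without overlap. Of the plus-strand tRNAs 5 were higher, 2 lower and 4 overlapped. The shares over all tested genes were 27.8% higher and 24.4% lower. Since the libraries do not mark the strand, whether direction goes with the transcribed strand cannot be told. mt-Ti, the isoleucine tRNA, was at 30.9 and 27.9 FPKM in WTKL and 45.8 and 34.8 in LYZKL (log2 difference 0.43, SE 0.15, adjusted p = 0.242, limma). Its values rest on 77 reads in WTKL and 96 in LYZKL, and those of mt-Tl2 on 50 and 64. mt-Tl2, a leucine tRNA, was at 11.8 and 22.8 FPKM in WTKL and 26.5 and 25.4 in LYZKL, where WTKL replicate 1 alone was far from the rest. The tRNAs for histidine, arginine, threonine and serine (mt-Th, mt-Tr, mt-Tt and mt-Ts2), all between 7.26 and 39.1 FPKM, overlapped between the groups.

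**Figure D3:**
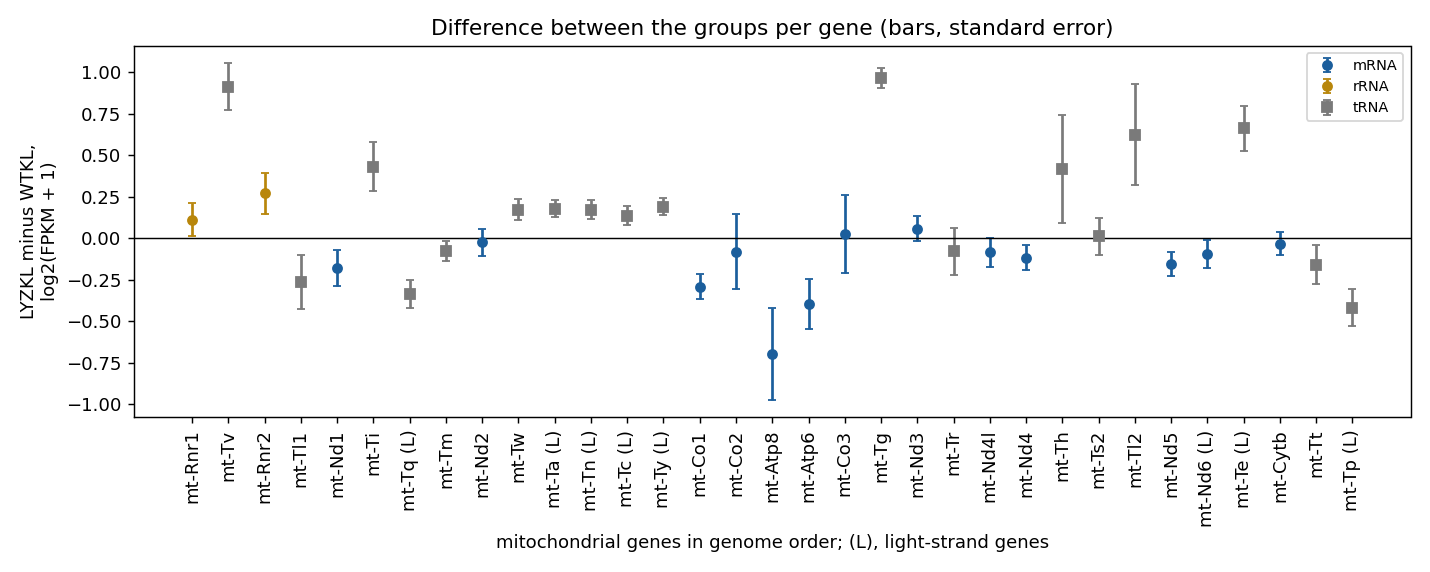
LYZKL minus WTKL on the log2(FPKM + 1) scale for the 33 tested mitochondrial genes in genome order, with the standard error of the limma fit as bars. The mRNAs, drawn without copies added, lie mostly below 0 and the tRNAs mt-Tv, mt-Te and mt-Tg lie highest, at 0.91, 0.66 and 0.97.

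Summed over a class, mRNA was 13454 and 14894 FPKM in WTKL and 13027 and 12719 in LYZKL, 90.8% of the WTKL level. Both LYZKL sums lay below both WTKL sums, and LYZKL replicate 1 lay close to WTKL replicate 1. With copies added, the sums were 24477 and 27578 in WTKL and 22533 and 22558 in LYZKL (86.6%), a wider gap. tRNA was at 3323 and 3337 FPKM in WTKL and 3715 and 3554 in LYZKL, or 109% of WTKL, again without overlap. rRNA was at 196 and 173 FPKM in WTKL and 230 and 194 in LYZKL (115%), and LYZKL replicate 2 lay under WTKL replicate 1. With 2 libraries a group, the exact two-sided permutation test cannot go below 0.333, which was its p for the mRNA and tRNA sums; for rRNA it was 0.667.

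The classes were also compared with each other within a library, which removes the library total. In summed FPKM, tRNA amounted to 24.7% and 22.4% of mRNA without copies in WTKL and 28.5% and 27.9% in LYZKL. With copies added the shares were 13.6% and 12.1% in WTKL and 16.5% and 15.8% in LYZKL. rRNA amounted to 1.46% and 1.16% of mRNA in WTKL and 1.77% and 1.53% in LYZKL. In each of these ratios both LYZKL libraries were higher (exact permutation p = 0.333, the smallest possible). FPKM divides by gene length, which raises the short tRNA genes, and in reads tRNA was a far smaller part. It took 0.0227% and 0.0228% of library reads in WTKL and 0.0254% and 0.0242% in LYZKL. mRNA without copies took 1.40% and 1.54% in WTKL and 1.32% and 1.30% in LYZKL.

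By complex, with copies added, complex V was lowest relative to WTKL (7389 and 8655 FPKM in WTKL, 6140 and 6602 in LYZKL, 79.4%). Complex IV followed (6194 and 6823 in WTKL, 5492 and 5473 in LYZKL, 84.2%), and then complex I (9443 and 10576 in WTKL, 9393 and 9084 in LYZKL, 92.3%). For complex I, LYZKL replicate 1 lay only just under WTKL replicate 1, and complex III overlapped (97.7%). The complex V sum (mean 8022 FPKM in WTKL) is nearly all mt-Atp6 with its copy (8013), so it repeats the result of that gene. Within a library, complex IV was 65.6% and 64.5% of complex I in WTKL and 58.5% and 60.2% in LYZKL, and complex V was 78.3% and 81.8% of complex I in WTKL and 65.4% and 72.7% in LYZKL. Both ratios were lower in both LYZKL libraries, whereas complex V as a share of complex IV overlapped (119% and 127% in WTKL, 112% and 121% in LYZKL). Members and copies together took 2.26% and 2.52% of all reads in WTKL and 2.08% in each LYZKL library.

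**Figure D4:**
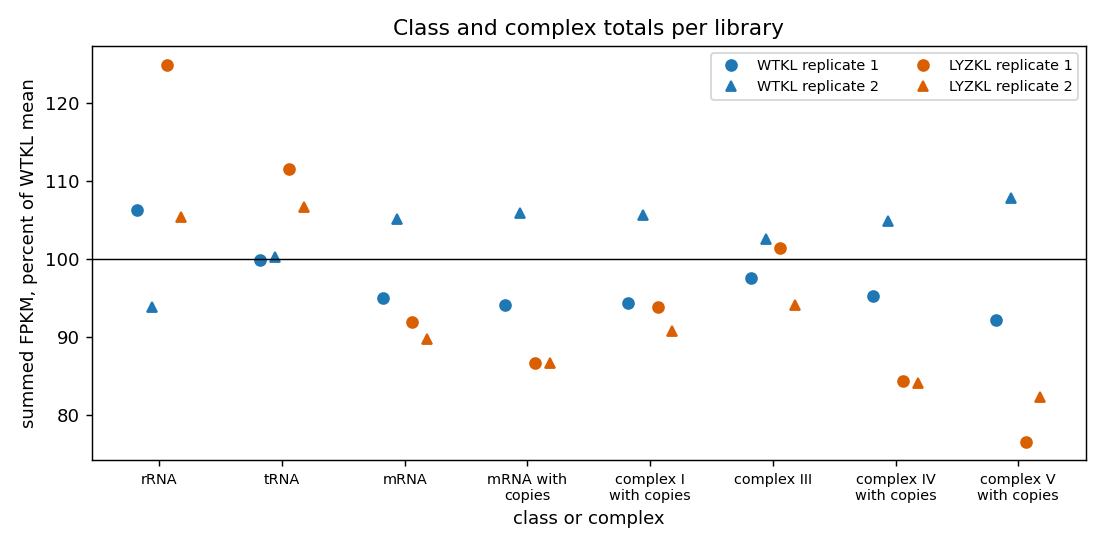
Summed FPKM per class or complex in each library as a percent of the WTKL mean (100, line). LYZKL points lie under both WTKL points for mRNA and for complexes I, IV and V with copies, and above them for tRNA. For complex I, LYZKL replicate 1 lies only just under WTKL replicate 1. For rRNA 1 LYZKL point lies above both WTKL points and for complex III 1 lies below both, while the other lies between them.

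Nuclear genes complete these complexes and serve the expression of the mitochondrial genome, and none of those listed passed the test. Over 10 lists with 225 tested genes, limma called 0 at the adjusted threshold. It called only 0.292% of all tested genes, so 0 calls in lists of this size say little. At an unadjusted p under 0.05 it gave 6 higher and 7 lower, where the shares over all tested genes were 10.9% and 7.85%. limma-voom called 3 higher and 0 lower, beside 5.8% and 3.52% of the genes it tested. The nuclear subunits of complex I (36 tested) had a median log2 difference of −0.01, those of complex III (9) 0.04, of complex IV (11) −0.03 and of complex V (17) −0.04, and complex II (4), which has no mitochondrial gene, −0.03. None of these medians was far from the 0.01 of all tested genes. Summed over the nuclear subunits, complex IV was at 535 and 534 FPKM in WTKL and 524 and 534 in LYZKL, and complex V at 942 and 987 in WTKL and 925 and 969 in LYZKL. As a share of the WTKL mean, LYZKL stood at 99.0% for the nuclear subunits of complex IV and 98.2% for those of complex V. The sums of complex V overlapped, and for complex IV LYZKL replicate 2 nearly equalled WTKL.

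Among the nuclear genes of smallest p were Ndufb9 of complex I, at 61.6 and 62.8 FPKM in WTKL and 71.7 and 68.1 in LYZKL, and Ndufa4, at 4.54 and 5.16 in WTKL and 5.81 and 6.20 in LYZKL, both higher in LYZKL. Ndufc2 of complex I (15.3 and 15.3 FPKM in WTKL, 12.3 and 13.9 in LYZKL) and Atp5g3 of complex V (11.7 and 12.1 in WTKL, 10.8 and 9.98 in LYZKL) were lower without overlap. None of these 4 passed the threshold, with adjusted p-values of 0.213 to 0.266 in limma. Mitochondrial ribosomal proteins (78 tested) had a median of 0.02, and Mrpl52 and Mrps15 had the smallest p-values. Mrpl52, a protein of the large subunit, was at 42.1 and 41.8 FPKM in WTKL and 60.3 and 59.0 in LYZKL, with an adjusted p of 0.0606 in limma and 0.00133 in limma-voom. Mrps15, of the small subunit, was at 23.3 and 23.4 FPKM in WTKL and 30.8 and 30.1 in LYZKL, with adjusted p-values of 0.0672 and 0.0094. Of the 14 tested genes of replication and transcription (median −0.04), Rnaseh1, which removes RNA from RNA-DNA hybrids, was at 14.3 and 13.3 FPKM in WTKL and 11.8 and 11.3 in LYZKL, and Top1mt, the mitochondrial topoisomerase, at 5.95 and 4.53 in WTKL and 3.55 and 4.07 in LYZKL. Both were lower without overlap and missed the threshold (adjusted p = 0.179 and 0.278, limma).

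Of the 27 tested genes of RNA processing and stability (median −0.02), Pnpt1 and Pde12 had the smallest p-values. Pnpt1, the exoribonuclease that degrades mitochondrial RNA, was at 16.4 and 15.8 FPKM in WTKL and 13.7 and 13.8 in LYZKL, lower without overlap (log2 difference −0.21, SE 0.05, adjusted p = 0.163, limma). Pde12, which removes poly(A) from mitochondrial transcripts, was at 2.49 and 2.24 FPKM in WTKL and 3.16 and 2.97 in LYZKL (log2 difference 0.28, SE 0.09), and its adjusted p was 0.231 in limma and 0.0416 in limma-voom. The aminoacyl-tRNA synthesis list (15 tested) had a median of −0.00083 and the proteases and chaperones (14 tested) of −0.04. Clpp, the peptidase of the matrix, was at 4.98 and 4.67 FPKM in WTKL and 4.23 and 3.21 in LYZKL, with an adjusted p of 0.304 in limma.

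**Figure D5:**
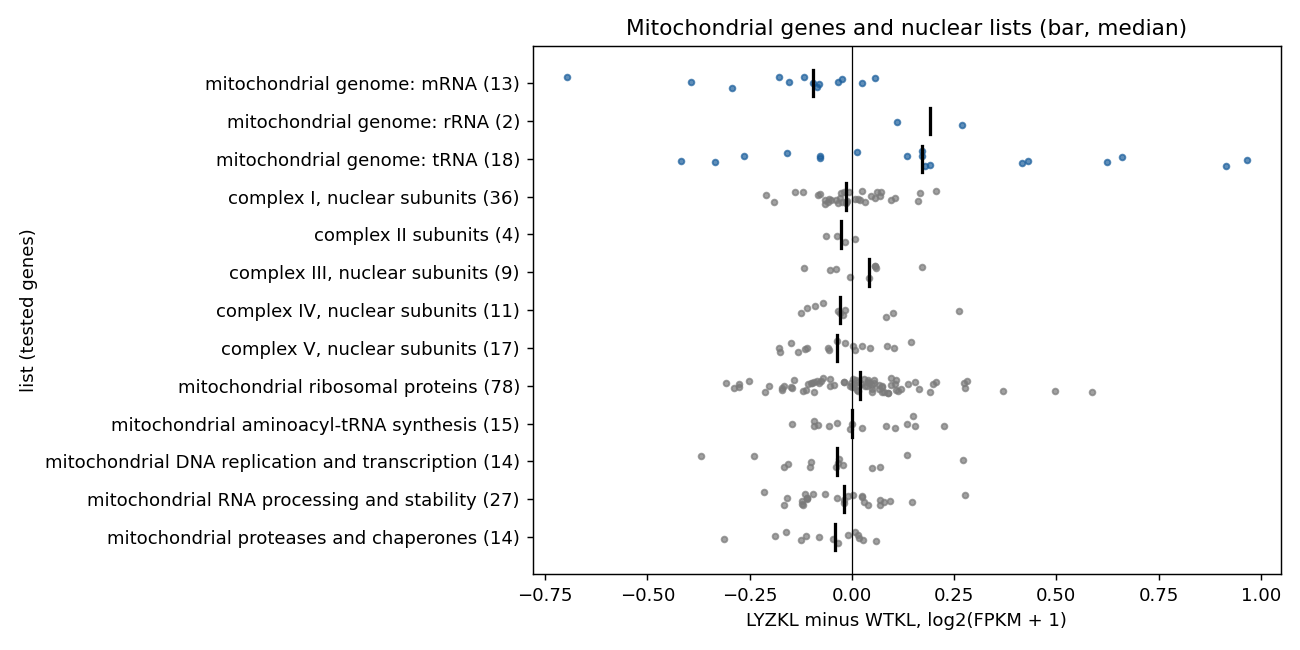
LYZKL minus WTKL on the log2(FPKM + 1) scale for each tested gene of the mitochondrial genome by class (blue) and of 10 nuclear lists (grey), with the median as a bar. Medians of the nuclear lists lie between −0.04 and 0.04, against −0.09 for the mitochondrial mRNAs without copies added and 0.17 for the tRNAs.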

How the data were processed

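Poly(A) RNA libraries of sorted lung macrophages (2 WTKL, 2 LYZKL) were sequenced as 150-base paired reads, per the labels' protocols. The authors deposited FPKM values. Tools listed in the submitters' processing notes, without roles, are featureCounts 2.0.0, HISAT2 2.0.5 and Cell Ranger 6.1.2, with the build mm10. The annotation and the gene lengths they used were not given in the sources used here. Groups and replicate numbers came from sample titles. All 4 libraries share 1 batch label.

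The test was limma 3.58.1 (R 4.3.3) with a mean-variance trend on log2(FPKM + 1), which understates changes of low genes, with 4.34 degrees of freedom. Whole reads (tolerance 0.05 read at the annotated length, or 0.003 at a length found by search), recovered for 99.88% of tested rows, were tested with limma-voom as an alternative. Of all rows, 26196 matched 1 gene name each in GENCODE M21. Nuclear copies were found with blastn 2.17.0. The fit was also run on simulated counts with the same assumed scatter for all genes, which does not show how it performs on these data. Every mitochondrial row was named, with the 2 most abundant and 2 smallest-p genes of each nuclear list eligible; not all are printed. The members and lists were chosen with earlier results of these data known. Adding nuclear copies and rescaling without them were chosen after seeing the data.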

Additional observations from a re-analysis of the deposited data

How the results depend on the processing

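The count of 1 mitochondrial gene past the threshold (mt-Tg) became 0 with no filter on low values, with no mean-variance trend and with the replicate block, 2 under a minimum mean of 5 FPKM (mt-Tg and mt-Tv) and 3 with limma-voom (mt-Tv, mt-Te and mt-Co1). It ranged from 0 to 0 with 1 library left out. For the nuclear lists the count of 0 became 2 under the minimum mean of 5 FPKM (Mrpl52 and Mrps15) and 3 with limma-voom (Pde12 too). Over all genes limma called 37, limma-voom 1181, the 5 FPKM minimum 340 of 6834, a pseudocount of 5 gave 27, and no filter, no trend, the replicate block and each left-out library gave 0. Replicate numbers are shared only by title, and deviations of same-numbered libraries correlated at 0.16 across genes, so they were not taken as pairs. Sums of mRNA (−0.21 to −0.06), rRNA (0.08 to 0.32) and tRNA (0.09 to 0.16) kept their log2 direction in every alternative run. Of 33 tested members, 24 never changed direction. Gas5 turned to −0.0041 with median-of-ratios size factors, mt-Nd2 to 0.0024 when rescaled without mitochondrial rows, mt-Co3 to −0.036 in limma-voom, and with copies added mt-Co3 to −0.21 and mt-Nd3 to −0.054. With 1 library left out, ranges crossed 0 for mt-Th (−0.0099 to 0.84), mt-Tr (−0.27 to 0.12), mt-Nd3 (−0.025 to 0.14), mt-Co3 (−0.26 to 0.31), mt-Ts2 (−0.13 to 0.15), mt-Nd2 (−0.096 to 0.049), mt-Nd4l (−0.18 to 0.0089), mt-Co2 (−0.35 to 0.18), mt-Cytb (−0.088 to 0.021), Uqcr10 (−0.0023 to 0.34), Sdhb (−0.10 to 0.030) and Gas5 (−0.11 to 0.12). A lone library was then assumed to vary like the other group. Causes were not tested, apart from the copies, which hold most reads of mt-Co3. Low read numbers limit mt-Tg, mt-Tt, mt-Ts1, mt-Ts2, mt-Tr, mt-Th, mt-Tl2, mt-Ti and mt-Atp8, and the mitochondrial rows of mt-Co2 and mt-Co3.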
